A study of Mus musculus with 45 samples.

Results

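The livers of 5 mice killed 6 h after acetaminophen (APAP) were set against those of 5 fasted mice killed untreated at 0 h, over 18180 genes. The 10 arrays were taken by their titles from the 45 mouse arrays of the series, 5 in each of 9 groups, and no measured value entered the choice. All were male C57Bl/6J mice fasted for 16 h, and the treated mice then received by oral gavage either 300 mg/kg of APAP or the vehicle alone, a 1% hydroxyethylcellulose gel. Mice given vehicle and killed at 6 h, also 5, are set beside the main comparison, because the 0 h and 6 h livers differed in drug, gavage, vehicle, time of day and the return of food after the fast. Against 0 h alone these cannot be told apart. By design the APAP and vehicle mice of 6 h differed only in the drug. Their direct comparison tested whether the move from 0 h differed with it, and its estimate equals the difference between the 2 moves. Food intake after the fast is not given, so a difference in eating between these groups cannot be told apart from the drug. In a bulk sample, fewer cells of a type and less RNA per cell cannot be told apart.

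APAP is cleared in the liver mainly by conjugation, and a part is oxidised by cytochrome P450 enzymes, most abundant in the hepatocytes around the central vein, to the reactive metabolite NAPQI. Glutathione traps NAPQI, and once glutathione runs out the metabolite binds proteins and stresses the cell. The known stress programmes of hepatocytes include Nrf2, which induces antioxidant enzymes, heat shock factor 1, which induces chaperones, ATF4 and CHOP, which respond to amino acid shortage and other stresses, and the immediate early genes, which respond within minutes to kinase signalling. A fasted liver oxidises fat and makes glucose, and on refeeding it turns to lipid and sterol synthesis and protein secretion, so that vehicle-treated livers can themselves move away from 0 h.

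Values are the authors' log2 RMA expression values, 1 per gene and array, and differences are log2 fold changes from limma with their standard errors (SE). A gene is called higher or lower where its adjusted p was under 0.05 and its change 1.5-fold or more. Against 0 h, 453 genes were higher (2.49% of those tested) and 321 lower (1.77%) at 6 h after APAP. Over the same interval vehicle left 310 genes higher (1.71%) and 216 lower (1.19%). Against vehicle at 6 h, 416 genes were higher (2.29%) and 551 lower (3.03%) after APAP, together 5.32%. The 5 APAP arrays lay wholly above the 5 untreated arrays in 6.69% of genes and wholly below in 10.1%, and the vehicle arrays in 9.41% and 7.33%, so that groups without overlap were common. These comparisons share arrays, so their values are given side by side and their overlap is not read. The 10 hepatocyte markers, albumin among them, had none called and averaged 14.07 to 14.19 in all 10 arrays of the main comparison.

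Replicate 5 of the APAP 6 h group stood apart. Its 7 measured pancreatic acinar genes, which encode digestive enzymes, averaged 13.58, against 6.96 to 7.48 in the other 44 arrays. It also lay nearest the untreated level for several of the genes described here (Glul, Slc1a2, Rhbg). The part of the pancreatic RNA in these values was not tested. Without it, 505 genes were higher (2.78%) and 350 lower (1.93%) against 0 h, and 728 of the 774 genes called with all arrays were called the same way. Against vehicle, 433 were then higher (2.38%) and 529 lower (2.91%). Among the genes described below, those whose call from 0 h depended on this array were Stip1, Cyp7a1, Zbtb16, Cxcl12, S100a8 and S100a9. Replicate 3 of the vehicle 6 h group stood apart in single genes, among them Igfbp1 and Mt2, and values without it are given beside the printed vehicle moves whose call it decided. The fat genes Adipoq and Cfd were high in untreated replicate 2 and APAP replicates 1 and 5 (Adipoq 7.14, 8.64 and 8.53, against 5.00 to 5.44 in the other 7 arrays of the comparison), and neither was called.

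**Figure D1:**
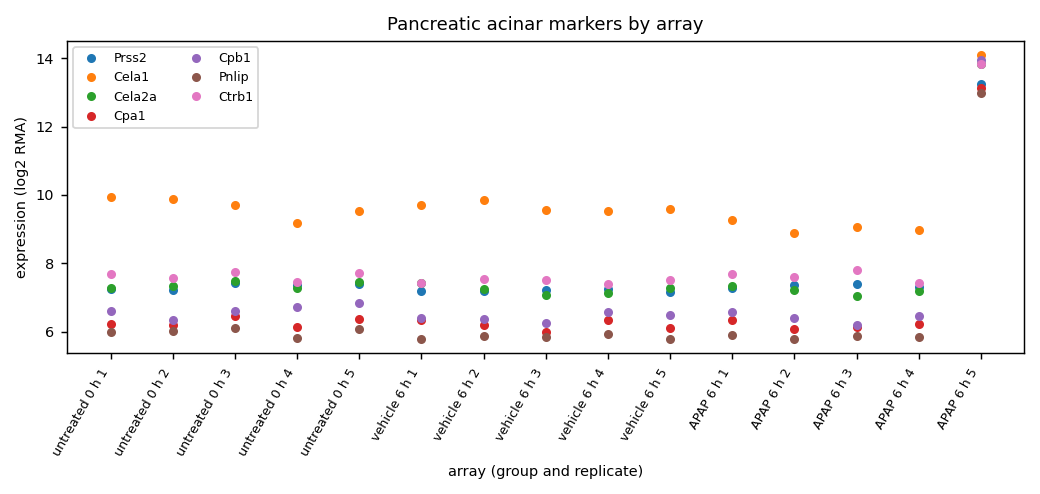
Log2 expression of 7 pancreatic acinar genes in each of the 15 arrays of the untreated 0 h, vehicle 6 h and APAP 6 h groups. APAP 6 h replicate 5 lies at 12.99 to 14.1 for all 7 genes, and the other 14 arrays lie far below it for each gene.

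Promoter sequences are shown for 1 gene each of the heat shock, Nrf2 and immediate early lists, with the known element of that programme marked. Windows of 300 bases, from 250 before to 50 after the annotated start, were read 5′ to 3′ on the gene's strand from RefSeq (build GRCm38.p6), and both strands were searched. Matched bases are in capitals. A match describes the sequence only, since no binding was measured. Here and below, shares are of windows, while a listed gene counts if any of its windows matches, so the units differ. The heat shock element searched was GAA, TTC and GAA in that order with 2 free bases between neighbours, found in 198 of 32851 mouse promoter windows (0.603%) and in 3 of the 10 called heat shock genes that had a window. One of them is Hsph1, a chaperone of the Hsp110 class, shown with the first of its 2 windows (chr5:149636287-149636586, minus strand). The antioxidant response element bound by Nrf2 was searched as TGAC and GCA with 3 free bases between them, held by 999 windows (3.04%) and by 2 of 11 called Nrf2 targets, Pgd and Txnrd1. Txnrd1, thioredoxin reductase, is shown with the window that holds it (chr10:82858956-82859255, plus strand). The cyclic AMP response element TGACGTCA, read by the CREB and ATF family, was in 588 windows (1.79%) and in 4 of 26 called immediate early genes, among them Maff (chr15:79347270-79347569, plus strand).
Hsph1: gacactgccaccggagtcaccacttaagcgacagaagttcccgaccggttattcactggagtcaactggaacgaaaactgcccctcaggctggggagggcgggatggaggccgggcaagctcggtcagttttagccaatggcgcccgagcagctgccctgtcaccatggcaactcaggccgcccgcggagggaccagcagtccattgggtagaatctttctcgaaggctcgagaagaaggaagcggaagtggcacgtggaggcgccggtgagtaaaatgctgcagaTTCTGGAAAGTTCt
Txnrd1: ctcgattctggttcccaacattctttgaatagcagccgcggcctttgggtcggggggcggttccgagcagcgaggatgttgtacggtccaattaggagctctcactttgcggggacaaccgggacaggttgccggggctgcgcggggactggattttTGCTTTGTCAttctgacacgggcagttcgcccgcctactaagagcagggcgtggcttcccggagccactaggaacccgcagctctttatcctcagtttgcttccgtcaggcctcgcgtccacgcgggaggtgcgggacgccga
Maff: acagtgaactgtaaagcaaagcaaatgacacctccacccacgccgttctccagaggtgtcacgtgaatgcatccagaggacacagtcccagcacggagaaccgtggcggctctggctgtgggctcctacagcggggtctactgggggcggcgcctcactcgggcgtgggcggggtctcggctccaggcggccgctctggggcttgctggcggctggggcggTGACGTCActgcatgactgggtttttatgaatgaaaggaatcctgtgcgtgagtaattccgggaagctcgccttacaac

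The largest moves from 0 h were increases of stress genes, and vehicle moved these genes less. Hspa1a (Entrez gene 193740), the inducible Hsp70 chaperone, read 5.69, 5.98, 5.26, 5.89 and 5.10 in the untreated arrays, 6.05, 6.44, 5.63, 5.84 and 6.05 after vehicle, and 13.45, 13.74, 13.63, 11.76 and 11.54 after APAP. All 5 APAP arrays lay far above the rest, with replicates 4 and 5 lower than the other 3. Its log2 fold change from 0 h was 7.24 (SE 0.43, adjusted p = 1.47e-06), or 151-fold, and 7.56 without replicate 5. The untreated values are below each array's lower quartile, which was 6.23 to 6.43, and were not tested against background, so the fold is uncertain in size. Vehicle moved it by 0.42 (SE 0.18), which was not called.

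The heat shock and chaperone list had 11 of 22 measured members higher and none lower, with a median of 0.73, where the median of all genes was -0.03. After vehicle 4 were higher, or 6 without vehicle replicate 3, and against vehicle 7 were. Hspa1b, a second inducible Hsp70 gene whose near-identical sequence may share probes with Hspa1a, rose by 3.43 (SE 0.29). Dnajb1, the Hsp40 partner that feeds clients to Hsp70, rose by 3.89 (SE 0.19), and Bag3, the Hsp70 cochaperone that links it to autophagy, by 2.67 (SE 0.27). Hsph1 rose by 2.51 (SE 0.32) against 0 h, and vehicle also moved it by 1.01 (SE 0.21). The mitochondrial chaperonin subunit Hspe1 rose by 0.83 (SE 0.15). Without vehicle replicate 3, vehicle moved Hspe1 by 0.48 and the difference between APAP and vehicle was 0.35, neither called. Chordc1, a cochaperone of Hsp90, and Stip1, which couples Hsp70 to Hsp90, followed the vehicle instead. Chordc1 rose by 0.83 (SE 0.19) after APAP and by 0.86 (SE 0.10) after vehicle, and the difference between the 2 groups was -0.03 (SE 0.20). For Stip1 the move after APAP was 0.56 (SE 0.20, adjusted p = 0.063), not called with all arrays and 0.70 without replicate 5, which was called, while vehicle raised it by 0.93 (SE 0.10). Without replicate 5 the count of higher members was 13. Across the list replicate 5 was often the lowest APAP array, as in Dnajb1, where the APAP values were 14.04, 14.10, 14.00, 13.68 and 12.96.

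Immediate early and AP-1 genes, which encode transcription factors and phosphatases switched on by kinases without new protein synthesis, had the largest share of called members among the 34 process lists. Of 41 measured, 31 were higher than at 0 h and none was lower, with a median of 1.39. Vehicle left 3 higher and 4 lower. Atf3 (Entrez gene 11910), a stress-induced factor of the ATF family, read 7.25 to 7.62 in the untreated arrays, 7.43 to 7.86 after vehicle and 14.02, 13.69, 13.92, 14.07 and 13.88 after APAP. The APAP arrays lay close together and far from both control groups, a log2 fold change of 6.41 (SE 0.09, adjusted p = 1.81e-12), or 85.2-fold. Vehicle moved it by 0.12 (SE 0.09).

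The AP-1 subunits Jun and Fos differed in what vehicle did. Jun rose by 5.24 (SE 0.14) after APAP and by 0.89 (SE 0.21) after vehicle. Fos read 7.49, 7.92, 7.36, 7.44 and 7.15 at 0 h and 13.29, 11.74, 12.02, 13.10 and 12.57 after APAP, so that the groups did not overlap. Its fold change was 5.07 (SE 0.27), with 0.22 (SE 0.25) after vehicle. Maff, a small Maf protein that dimerises with Nrf2, rose by 4.73 (SE 0.10), and Klf6, a zinc finger factor, by 4.25 (SE 0.10). Egr1, a zinc finger factor downstream of MAP kinases, rose by 4.72 (SE 0.26) after APAP, and vehicle raised it too, by 1.35 (SE 0.32). Its relative Egr2 rose by 1.00 (SE 0.22) from untreated values of 4.39 to 4.68, near the bottom of the array's range. The antiproliferative gene Btg2 rose by 2.88 (SE 0.28), and Dusp1, a phosphatase that turns off MAP kinases, by 2.21 (SE 0.22). Ifrd1, a transcriptional coregulator, rose by 4.32 (SE 0.11) and had moved by 0.65 (SE 0.09) with vehicle. Ccn1, a matricellular protein and target of YAP, rose by 3.21 (SE 0.15).

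Some growth arrest and damage genes and a few others rose as well. Gadd45a, which is induced by DNA damage and other stresses, read 6.24 to 6.86 at 0 h and 10.59, 9.11, 9.80, 10.98 and 11.07 after APAP, with replicate 2 the lowest. Its fold change was 3.73 (SE 0.33), and after vehicle 0.40 (SE 0.24), not called, although 1 vehicle array reached 8.02. Plk3, a stress-activated kinase, rose by 3.39 (SE 0.25). Tnfrsf12a, the receptor for the cytokine TWEAK, rose by 3.11 (SE 0.18), and Chka, choline kinase, by 3.20 (SE 0.14) where vehicle lowered it by 0.65 (SE 0.15). Of 27 p53 target and growth arrest genes, 6 were higher and 1, the death receptor gene Fas, was lower (-0.61). The other 20 were not called, and the median of the list was 0.05. Mdm2, the p53 ubiquitin ligase and a p53 target, rose by 1.33 (SE 0.12) with 0.17 (SE 0.05, not called) after vehicle.

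Nrf2 targets rose in part. Of 35 measured, 15 were higher and none lower, with a median of 0.41, and without APAP replicate 5 the count was again 15. After vehicle 3 were higher, or 5 without vehicle replicate 3. Hmox1 (Entrez gene 15368), heme oxygenase, read 8.38, 8.54, 8.34, 8.66 and 8.16 at 0 h, 8.41, 8.52, 8.79, 8.09 and 8.30 after vehicle, and 13.19, 12.67, 12.92, 13.58 and 13.20 after APAP. The untreated and vehicle arrays lay on the same level and every APAP array stood well above them. The log2 fold change was 4.70 (SE 0.15, adjusted p = 5.69e-09), or 25.9-fold, and 0.01 (SE 0.12) after vehicle. Srxn1, which repairs oxidised peroxiredoxins, rose by 2.89 (SE 0.22), Osgin1, an oxidative stress growth inhibitor, by 2.56 (SE 0.16), and Txnrd1 by 1.61 (SE 0.20). Pgd, of the NADPH-yielding pentose phosphate pathway, rose by 1.47 (SE 0.13) and Nqo1, a quinone reductase, by 1.04 (SE 0.14). Replicate 5 was the lowest APAP array for Nqo1 (8.42, against 8.99 to 9.14), Pgd (10.76, against 11.22 to 11.40) and Txnrd1 (10.08, against 10.78 to 11.42).

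The enzymes of glutathione synthesis moved in the vehicle arm too. Gclc, the catalytic subunit of the rate-limiting ligase, read 11.71 to 11.95 at 0 h, 12.49 to 12.82 after vehicle and 13.97, 13.88, 13.88, 14.13 and 13.39 after APAP. The 3 groups formed separate steps, with 0.76 (SE 0.07) of the move present after vehicle and 1.99 (SE 0.11) after APAP, a difference of 1.23 (SE 0.12). For its partner Gclm the comparison with 0 h alone gave a call. It rose by 0.67 (SE 0.11) after APAP, vehicle moved it by 0.51 (SE 0.06), under the 1.5-fold limit, and the difference of 0.16 (SE 0.11) was not called. Gss, glutathione synthetase, rose by 0.95 (SE 0.10) after APAP and by 0.64 (SE 0.09) after vehicle. Ugdh, which makes the sugar donor for APAP glucuronidation, rose by 0.93 (SE 0.07), against a vehicle move of 0.58 (SE 0.09) that fell short of the limit. Without vehicle replicate 3 that move was 0.62 and called.

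**Figure D2:**
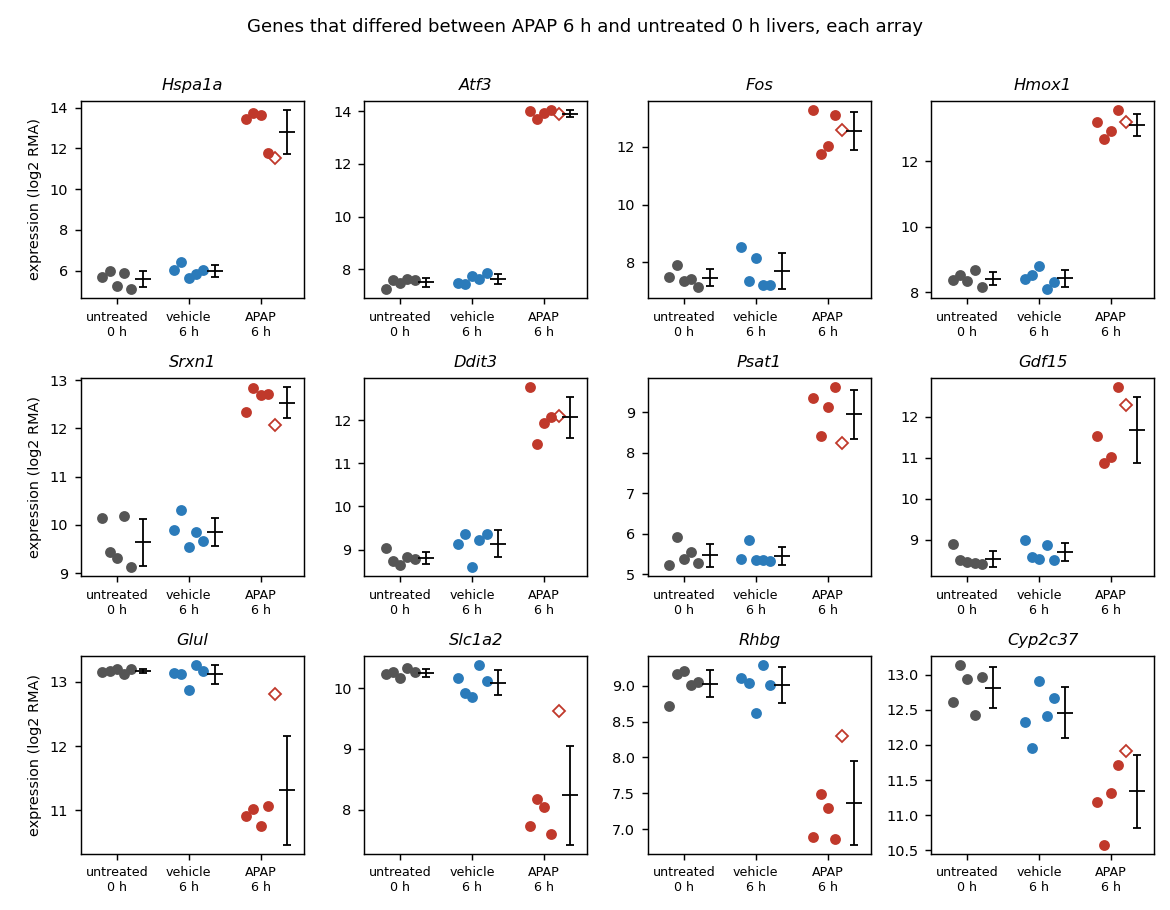
Log2 expression of 12 genes in each array of the untreated 0 h, vehicle 6 h and APAP 6 h groups, with mean and SD (n = 5), the open diamond marking APAP 6 h replicate 5. For the increases, such as Atf3 and Hmox1, vehicle stays near the untreated level, and for Glul and Slc1a2 replicate 5 lies nearer to the untreated arrays than the other 4 do.

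The ATF4 and CHOP list had 14 of 32 members higher and none lower, against 0 higher and 2 lower after vehicle. Ddit3 (Entrez gene 13198), which encodes CHOP, read 9.03, 8.73, 8.65, 8.83 and 8.79 at 0 h and 12.76, 11.45, 11.93, 12.08 and 12.09 after APAP. The groups stood far apart, with a fold change of 3.26 (SE 0.19) and a vehicle move of 0.33 (SE 0.13) that was not called. Psat1, of serine synthesis, read 5.21, 5.92, 5.36, 5.54 and 5.27 at 0 h and 9.36, 8.41, 9.13, 9.62 and 8.24 after APAP, a rise of 3.49 (SE 0.25) with -0.01 (SE 0.14) after vehicle. Gdf15, a secreted stress cytokine that acts on appetite, rose by 3.14 (SE 0.31). Ppp1r15a, the phosphatase subunit GADD34 that lifts the block on translation, read 9.49 to 9.55 at 0 h and 11.28 to 11.85 after APAP and rose by 2.08 (SE 0.10). Chac1, which degrades glutathione, rose by 1.73 (SE 0.11), Asns, asparagine synthetase, by 1.47 (SE 0.32) and Atf4 itself by 1.07 (SE 0.08). Of these, Chac1 had moved down by 0.49 (SE 0.10) after vehicle, short of the limit.

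Some genes that support growth and cell structure also rose. Myc rose by 2.35 (SE 0.14) with a vehicle move of -0.27 (SE 0.10) that was not called. Of 36 ribosome biogenesis genes, 16 were higher and none lower, with a median of 0.46. Among them Nop58, a core protein of small nucleolar RNA particles, rose by 1.64 (SE 0.15) after APAP and 0.73 (SE 0.11) after vehicle, and the nucleolar GTPase Gnl3 by 1.38 (SE 0.11) after APAP. Cytoskeletal genes had 8 of 32 higher, among them the tubulin Tubb6 (1.99, SE 0.18) and the hepatocyte keratin Krt8 (1.49, SE 0.24). Krt8 was highest in APAP replicates 4 and 5, at 13.46 and 13.20, against 12.14 to 12.31 in the other 3. None of 26 proteasome subunits and none of 31 respiratory chain subunits was called in either direction. With 4.26% of all genes called, lists of this size would hold few calls, so their absence is not read. The list medians were 0.19 and -0.07. An unadjusted p under 0.05 from limma was found for 16 and 8 members, and for 6049 of all 18180 genes. Slc2a1, the glucose transporter GLUT1 and 1 of 9 higher among 28 hypoxia and glycolysis genes, rose by 0.88 (SE 0.17). The epidermal growth factor receptor ligands Areg and Ereg rose by 1.28 (SE 0.20) and 1.22 (SE 0.25) from low untreated values of 5.35 to 5.67 and 4.43 to 4.90.

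Decreases from 0 h were smaller than the increases and were most frequent among the genes of pericentral hepatocytes, the cells next to the central vein. Of 34 measured pericentral genes, 16 were lower than at 0 h and none was higher, with a median of -0.53, whereas vehicle left 3 higher and 1 lower. Of 28 periportal genes, from the other end of the lobule, none was lower and 1 was higher. Of all genes 1.77% were lower and 2.49% higher, so these periportal counts are not read as a result. Glul (Entrez gene 14645), glutamine synthetase, read 13.16, 13.18, 13.20, 13.13 and 13.20 at 0 h, 13.14, 13.13, 12.88, 13.26 and 13.17 after vehicle, and 10.91, 11.02, 10.76, 11.07 and 12.81 after APAP. The untreated and vehicle arrays shared 1 level, 4 APAP arrays lay far under it, and replicate 5 lay between. The log2 fold change was -1.86 (SE 0.32, adjusted p = 0.00181), or -2.23 without replicate 5, and -0.06 (SE 0.06) after vehicle.

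The glutamate transporter gene Slc1a2 had the same arrangement, at 10.16 to 10.33 untreated and at 7.73, 8.18, 8.05, 7.60 and 9.62 after APAP. It fell by 2.01 (SE 0.30), and by 2.36 without replicate 5. Rhbg, an ammonium transporter, read 8.72 to 9.21 at 0 h and 6.89, 7.49, 7.30, 6.86 and 8.29 after APAP, with replicate 5 again the highest. It fell by 1.66 (SE 0.23), and Slc13a3, a dicarboxylate transporter, by 1.71 (SE 0.28). Vehicle moved these 3 by -0.16 (SE 0.09), -0.02 (SE 0.12) and 0.45 (SE 0.11), none of them called. Replicate 5 did not stand apart in every pericentral gene. Lgr5, a receptor of the Wnt pathway, read 7.77, 7.79, 7.85, 7.78 and 7.87 after APAP and 8.44 to 8.64 at 0 h, a decrease of 0.73 (SE 0.05) in which all 5 APAP arrays lay together. Oat, ornithine aminotransferase, fell by 0.72 (SE 0.17), with replicate 5 at 13.87 against 12.66 to 13.42 in the other 4 APAP arrays and 13.91 to 14.12 at 0 h. Without replicate 4, the lowest, its difference was -0.56 and under 1.5-fold. Rgn, regucalcin, fell by 1.07 (SE 0.11) with 0.06 (SE 0.08) after vehicle.

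Of 27 genes of bile acid synthesis and transport 4 were lower and none higher, and of 30 genes of APAP metabolism 2 were lower and 4 higher, with medians of -0.26 and -0.07. Some single enzymes fell. Cyp2c37, a cytochrome P450, read 12.62, 13.14, 12.94, 12.42 and 12.97 at 0 h and 11.18, 10.58, 11.31, 11.71 and 11.91 after APAP, without overlap. It fell by 1.48 (SE 0.22). Cyp1a2, a P450 that oxidises APAP, read 12.49 to 12.91 at 0 h and 11.66 to 11.98 after APAP. It fell by 0.85 (SE 0.09), and vehicle moved it by 0.03 (SE 0.13). Cyp7a1, the rate-limiting enzyme of bile acid synthesis, was lower by 0.84 (SE 0.26, adjusted p = 0.0373), a call lost without replicate 5 (-0.83) and in 7 of the other alternatives. Its groups overlapped, at 9.94 to 11.17 untreated and 9.06 to 10.22 after APAP. Tbx3, a factor of pericentral cells, fell by 1.04 (SE 0.16), and vehicle lowered it by 0.65 (SE 0.13). Without vehicle replicate 3, the lowest vehicle array, that vehicle move was -0.52, under the limit.

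Other large decreases lay outside the pericentral list. G0s2, an inhibitor of the lipase ATGL, had the largest fall of all genes from 0 h, by 2.36 (SE 0.17). It read 12.68 to 13.37 at 0 h and 10.28 to 11.05 after APAP. Vehicle lowered it by 1.20 (SE 0.39), with values of 12.20, 12.60, 9.97, 12.27 and 11.76, so that replicate 3 lay under every APAP array. Without that array the vehicle move was -0.75 and the difference between APAP and vehicle, -1.16 (SE 0.42) and not called with all arrays, was -1.61 and called. Nxpe2, a gene of little known function, fell by 1.59 (SE 0.20), and Mme, the peptidase neprilysin, by 1.53 (SE 0.21). Vehicle moved these by 0.43 (SE 0.23) and -0.64 (SE 0.23), neither called, but without vehicle replicate 3 the vehicle move of Nxpe2 was 0.62 and called higher. Ttc30b, a component of cilia, fell by 1.54 (SE 0.19) after APAP and by 0.92 (SE 0.10) after vehicle. Arrdc3, an arrestin-like protein, fell by 1.32 (SE 0.12), and the little studied transcripts Gm11266 and 2610528J11Rik by 1.33 (SE 0.16) and 1.29 (SE 0.10). Without vehicle replicate 3, vehicle moved them by -0.45, -0.28 and 0.04 in that order, none called. In contrast Serpina6, the corticosteroid-binding globulin, Sucnr1, the succinate receptor, and Lect2, a hepatokine, went opposite ways in the 2 arms. Serpina6 fell by 1.39 (SE 0.26) after APAP and rose by 1.11 (SE 0.29) after vehicle, Sucnr1 fell by 1.28 (SE 0.22) and rose by 0.74 (SE 0.17), and Lect2 fell by 0.89 (SE 0.11) and rose by 0.80 (SE 0.12).

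For a second set of genes the APAP and vehicle livers differed widely at 6 h, while the move from 0 h after APAP was smaller or not called. The metallothioneins Mt2 and Mt1, small metal-binding proteins, moved opposite ways in the 2 arms. Mt2 (Entrez gene 17750) read 12.16, 13.47, 13.13, 12.58 and 12.87 at 0 h, 8.74, 9.45, 11.56, 8.62 and 8.66 after vehicle, and 14.12, 13.52, 13.50, 14.29 and 14.17 after APAP. The APAP arrays sat just above the untreated ones, and the vehicle arrays far below both, with replicate 3 the highest of them. Against vehicle Mt2 was 4.51 (SE 0.50) higher, against 0 h it rose by 1.08 (SE 0.24), and vehicle lowered it by 3.43 (SE 0.49). Without vehicle replicate 3 the vehicle move was -3.97 and the difference from vehicle 5.05. Mt1 rose by 0.77 (SE 0.17) after APAP and fell by 2.41 (SE 0.34) after vehicle.

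Both metallothionein promoters hold several matches to TGCNCNC, a loose form of the metal response element, which is the site of the zinc sensor MTF1. The N positions accept any base, so a match need not be the element itself. This short pattern is in 16765 promoter windows (51.0%), and 2332 (7.1%) hold 3 or more matches. The Mt2 window (chr8:94172368-94172667, plus strand) holds 6 matches, and the Mt1 window (chr8:94178839-94179138, plus strand) holds 3.
Mt2: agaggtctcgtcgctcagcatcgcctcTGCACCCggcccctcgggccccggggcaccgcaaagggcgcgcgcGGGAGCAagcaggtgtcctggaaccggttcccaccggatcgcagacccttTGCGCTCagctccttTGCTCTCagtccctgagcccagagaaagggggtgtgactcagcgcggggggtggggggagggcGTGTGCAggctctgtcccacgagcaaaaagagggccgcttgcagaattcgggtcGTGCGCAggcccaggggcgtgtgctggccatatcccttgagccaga
Mt1: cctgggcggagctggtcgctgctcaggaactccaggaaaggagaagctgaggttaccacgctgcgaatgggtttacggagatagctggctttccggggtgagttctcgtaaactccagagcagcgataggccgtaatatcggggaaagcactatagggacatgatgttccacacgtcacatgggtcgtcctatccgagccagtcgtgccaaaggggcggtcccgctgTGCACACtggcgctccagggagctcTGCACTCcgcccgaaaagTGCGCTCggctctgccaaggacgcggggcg

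Several genes of the fasted state fell after vehicle and were not called after APAP in the fit on the 10 arrays, which does not show them unmoved. Pdk4, a kinase that spares glucose by blocking pyruvate oxidation, read 9.24, 8.96, 8.69, 9.99 and 9.09 at 0 h, 6.23, 6.52, 7.20, 6.64 and 6.55 after vehicle, and 9.96, 9.45, 9.16, 11.37 and 12.72 after APAP. Vehicle left every array under the fasted level, and APAP replicates 4 and 5 lay above it while the other 3 were within its range. The move after APAP was 1.34 (SE 0.59, adjusted p = 0.132), not called, and 0.80 without replicate 5, where vehicle lowered the gene by 2.57 (SE 0.22). With 1 model over 45 arrays Pdk4 was called higher after APAP (adjusted p = 0.0187 from limma). The cell cycle inhibitor Cdkn1a, a p53 target, had 0.62 (SE 0.27, not called) after APAP and fell by 2.34 (SE 0.20) after vehicle. Without APAP replicate 3 its move after APAP was 0.82 and called. Igfbp1, a binding protein for insulin-like growth factors that insulin represses, had 0.53 (SE 0.32, not called) and fell by 2.78 (SE 0.73) after vehicle, or by 3.52 without vehicle replicate 3, which at 13.34 lay among the untreated values.

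Several hormones and metabolic genes had this arrangement. Fgf21, a fasting hormone of the liver, moved by 0.69 (SE 0.42, not called) after APAP and fell by 2.03 (SE 0.36) after vehicle. Angptl4, an inhibitor of lipoprotein lipase, Irs2, an insulin receptor substrate, and Got1, an aminotransferase, moved by 0.01 (SE 0.16), 0.11 (SE 0.11) and 0.07 (SE 0.13) after APAP, none of them called. Vehicle lowered them by 1.30 (SE 0.20), 1.01 (SE 0.10) and 1.02 (SE 0.13). Cidec, a lipid droplet protein, was variable at 0 h (8.06 to 10.75) and moved by 1.45 (SE 0.58, not called) after APAP. That move was called with 1 model over 45 arrays, and without untreated replicate 1 or 4 (1.82 and 1.79). Vehicle lowered it by 1.66 (SE 0.49), a call lost without vehicle replicate 3 (-1.55, adjusted p = 0.0577). Across the list of 47 fasting and PPAR-alpha genes, 1 was higher and 5 lower after APAP, 0 and 14 after vehicle, and against vehicle 11 were higher and none lower. Without APAP replicate 5 the main count was 0 higher and 8 lower. Without vehicle replicate 3, 0 were higher and 12 lower after vehicle, and 10 were higher and 2 lower against vehicle. G6pc, glucose-6-phosphatase, fell in both arms, by 0.75 (SE 0.15) after APAP and by 1.38 (SE 0.27) after vehicle.

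**Figure D3:**
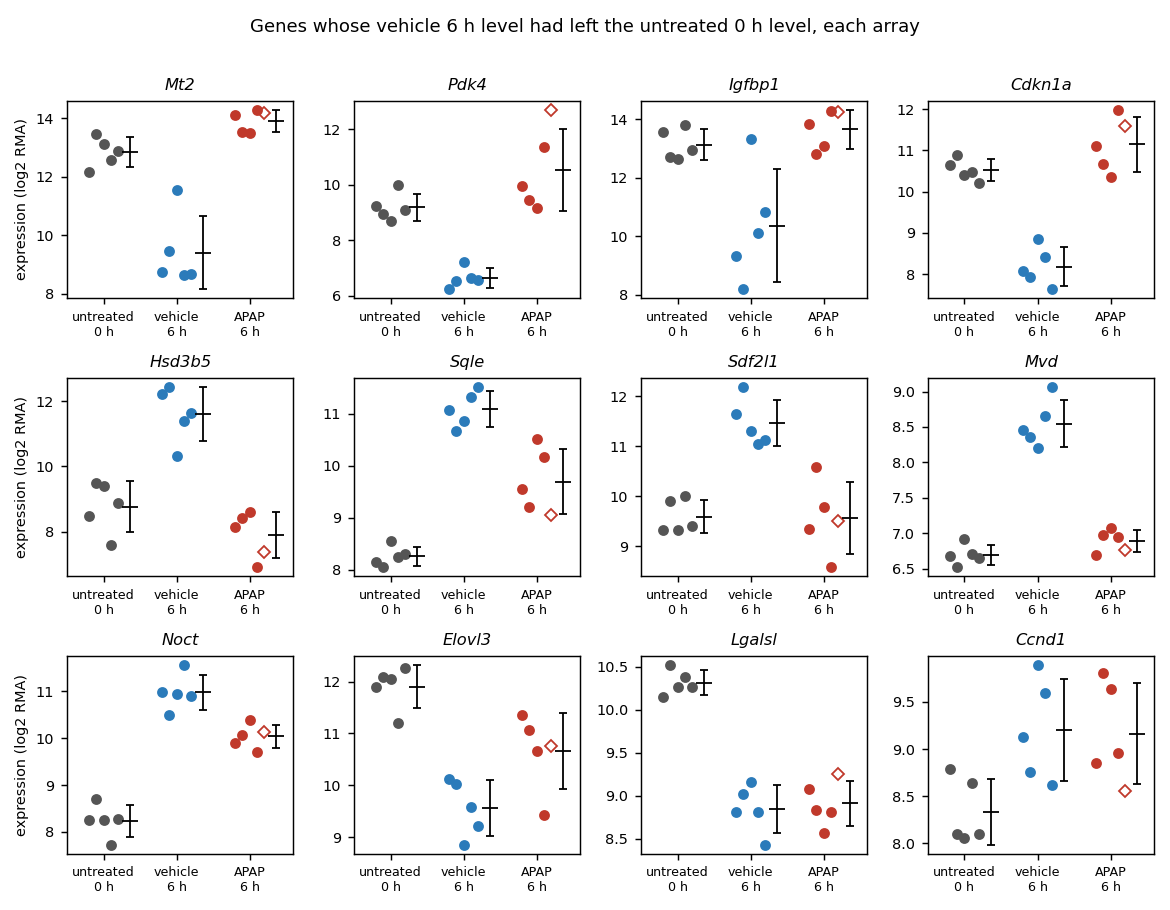
Log2 expression of 12 genes in each array of the untreated 0 h, vehicle 6 h and APAP 6 h groups, with mean and SD (n = 5) and an open diamond for APAP 6 h replicate 5. For Mt2, Pdk4, Igfbp1, Cdkn1a, Hsd3b5 and Sdf2l1 the APAP mean lies nearer the untreated mean than the vehicle mean does, with APAP replicates 4 and 5 of Pdk4 well above it, and for Lgalsl the APAP and vehicle arrays lie together under it.

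The reverse held for genes that rose after vehicle. Hsd3b5, a male-specific steroid enzyme, read 8.49, 9.48, 9.39, 7.59 and 8.88 at 0 h, 12.23, 12.43, 10.33, 11.38 and 11.62 after vehicle, and 8.14, 8.40, 8.61, 6.91 and 7.39 after APAP. Against vehicle it fell by 3.71 (SE 0.42), the largest decrease of all genes in that comparison, but against 0 h the difference was -0.87 (SE 0.39, adjusted p = 0.145) and the groups overlapped. Vehicle raised it by 2.83 (SE 0.41). Serpina7, the thyroxine-binding globulin, Car3, a carbonic anhydrase, and Keg1, a glycine acyltransferase-like gene, moved by -0.45 (SE 0.35), -0.98 (SE 0.47) and -0.55 (SE 0.43) after APAP, none called. Vehicle raised them by 2.37 (SE 0.29), 1.58 (SE 0.35) and 1.68 (SE 0.18). Nrep, a neuronal regeneration-related protein, fell by 0.77 (SE 0.18) after APAP where vehicle raised it by 2.16 (SE 0.12). Of 2 little studied transcripts with large falls against vehicle, Fam47e moved by 0.13 (SE 0.28) and C730036E19Rik by -1.05 (SE 0.42) from 0 h, neither called. Srebf1, which drives lipogenesis, moved by -0.10 (SE 0.17, not called) after APAP and rose by 1.05 (SE 0.16) after vehicle.

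Sterol synthesis took this course to different degrees. Of 24 genes driven by SREBP2, 2 were higher than at 0 h after APAP, 15 after vehicle, and 14 were lower after APAP than after vehicle. The list's medians were -0.01, 0.77 and -0.82. Without APAP replicate 5 the count against 0 h was 4. Mvd, an enzyme of the mevalonate pathway, read 6.53 to 6.91 at 0 h, 8.21 to 9.06 after vehicle and 6.70 to 7.07 after APAP, and moved by 0.20 (SE 0.09, not called). Sqle, squalene epoxidase, lay between the groups after APAP. It rose by 1.44 (SE 0.25) after APAP and by 2.83 (SE 0.15) after vehicle.

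Folding genes of the endoplasmic reticulum behaved alike. Of 29, 1 was higher than at 0 h after APAP, 12 were higher after vehicle, and 14 were lower after APAP than after vehicle, with medians of 0.02, 0.57 and -0.58. Sdf2l1, a cofactor of the chaperone BiP, read 9.32, 9.90, 9.32, 10.01 and 9.40 at 0 h, 11.65, 12.18, 11.30, 11.05 and 11.13 after vehicle, and 9.35, 10.59, 9.79, 8.58 and 9.51 after APAP. Untreated and APAP arrays overlapped, and the vehicle arrays lay above all of both. The moves were -0.03 (SE 0.30, not called) and 1.87 (SE 0.21). Creld2 and Manf, secreted or luminal stress proteins, moved by -0.20 (SE 0.29) and -0.02 (SE 0.22) after APAP, neither called, and rose by 1.60 (SE 0.25) and 1.19 (SE 0.16) after vehicle. Dnajb9, a cochaperone of BiP, was the 1 called after APAP, rising by 0.63 (SE 0.08), with 0.21 (SE 0.08, not called) after vehicle. Of 35 interferon-stimulated genes, 7 were higher after vehicle, and after APAP 1 was higher and 1 lower. Irgm2, an interferon-induced GTPase, was the lower one, by 0.76 (SE 0.13). The interferon counts after APAP are near the share of all genes (2.49% higher and 1.77% lower) and are not read.

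**Figure D4:**
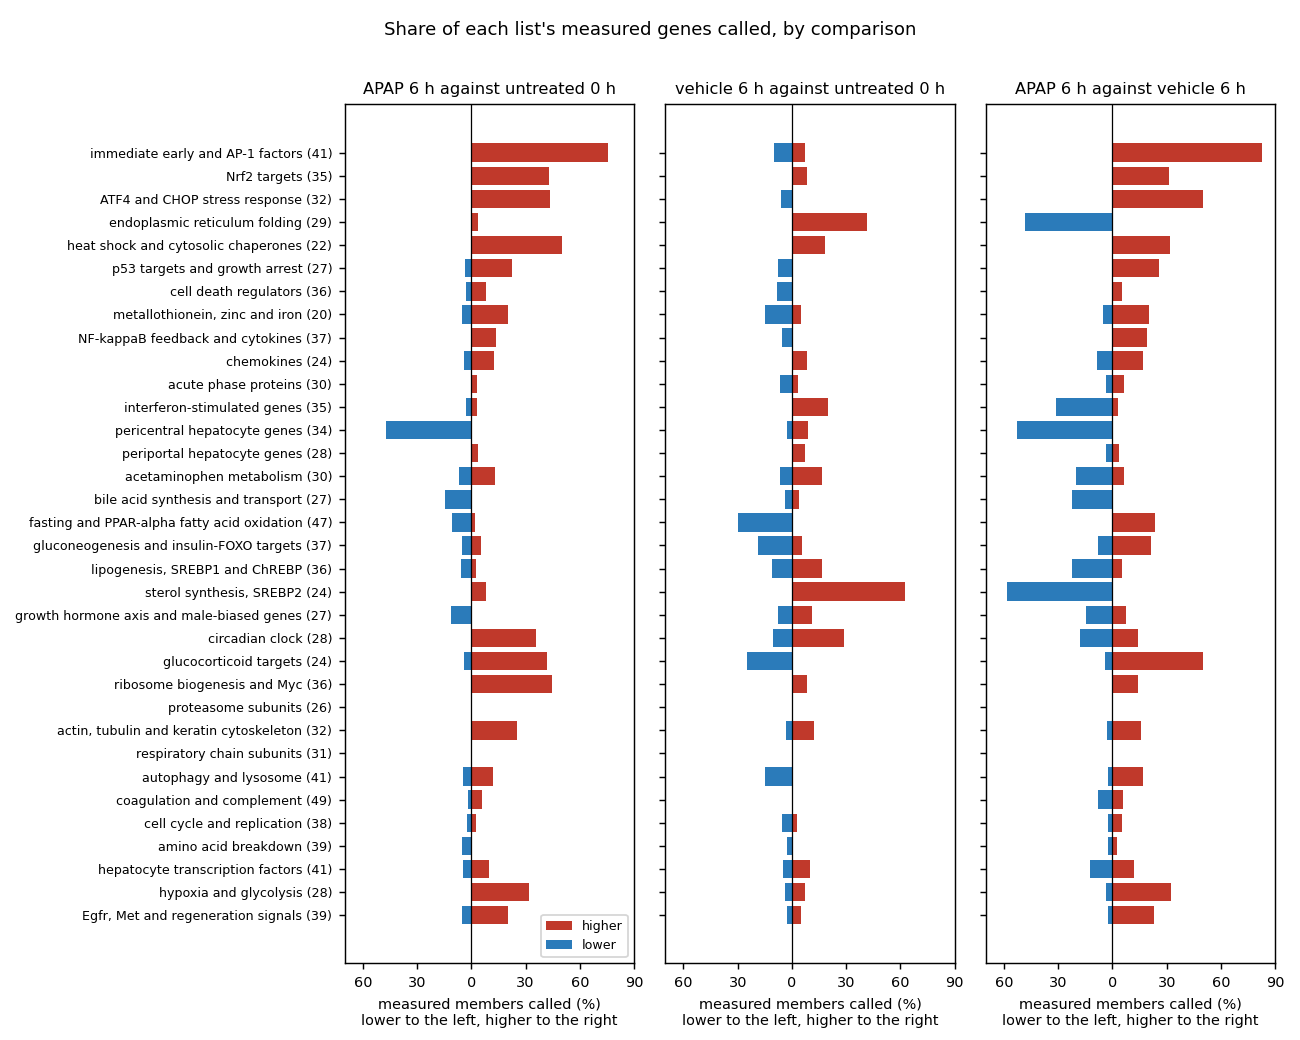
Percent of the measured members of 34 gene lists called higher or lower in APAP 6 h against untreated 0 h, vehicle 6 h against untreated 0 h and APAP 6 h against vehicle 6 h. Immediate early genes (31 of 41 higher) and pericentral genes (16 of 34 lower) stand out from 0 h, and the sterol and endoplasmic reticulum lists carry most of their calls in the 2 comparisons that include vehicle.

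Another set moved from 0 h to much the same level with and without the drug, so that a comparison with vehicle alone does not show it. Lgalsl, a galectin-like gene, read 10.14, 10.52, 10.26, 10.38 and 10.26 at 0 h, 8.81, 9.02, 9.16, 8.81 and 8.43 after vehicle, and 9.08, 8.84, 8.57, 8.82 and 9.25 after APAP. Both treated groups lay under every untreated array and overlapped each other. It fell by 1.40 (SE 0.12) and 1.47 (SE 0.12), and the difference between the groups was 0.06 (SE 0.15, adjusted p = 0.792). Acsl1, which activates fatty acids, fell by 0.66 (SE 0.08) and 0.65 (SE 0.08, or -0.58 and under the limit without vehicle replicate 3), Slc25a42, a mitochondrial coenzyme A carrier, by 0.81 (SE 0.12) and 0.80 (SE 0.07), and Erbb3, a receptor for neuregulins, by 0.90 (SE 0.11) and 0.94 (SE 0.08). The differences from vehicle were -0.01 (SE 0.11) for Acsl1 and 0.04 (SE 0.13) for Erbb3, and the adjusted p of Slc25a42 was 0.987 there. Ppara, the fasting regulator itself, fell by 0.78 (SE 0.16) after APAP and moved by -0.48 (SE 0.07), under the limit, after vehicle.

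Increases shared with vehicle included Ccnd1, cyclin D1, at 0.83 (SE 0.24) and 0.87 (SE 0.24), and Cdh1, E-cadherin, at 0.66 (SE 0.20) and 0.81 (SE 0.11). Both calls after APAP had adjusted p values close to the limit (0.0287 and 0.0351), and each was lost when any of several single arrays was left out. Of autophagy genes, Sqstm1, the cargo receptor p62 and also an Nrf2 target, rose by 1.14 (SE 0.07) after APAP with 0.06 (SE 0.08) after vehicle. Calcoco1, a receptor for selective autophagy, fell by 0.72 (SE 0.13) and by 1.13 (SE 0.09). Map1lc3b, the autophagosome protein LC3B, moved by -0.29 (SE 0.10, not called) after APAP and fell by 0.76 (SE 0.08) after vehicle. The list as a whole had 5 higher and 2 lower of 41 after APAP, and none and 6 after vehicle.

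Clock genes follow the time of day and the feeding rhythm, both of which differ between 0 h and 6 h. Of 28, 10 were higher after APAP and none lower, and vehicle left 8 higher and 3 lower. Noct, a rhythmic phosphatase, read 8.26, 8.69, 8.25, 7.72 and 8.27 at 0 h, 10.98, 10.51, 10.95, 11.56 and 10.89 after vehicle, and 9.90, 10.06, 10.39, 9.70 and 10.13 after APAP. The APAP arrays lay between the other groups without overlap, at 1.80 (SE 0.16) over 0 h, against 2.74 (SE 0.19) for vehicle. Per2 likewise rose by 1.09 (SE 0.12) and 2.01 (SE 0.21), and the fatty acid elongase gene Elovl3 fell by 1.25 (SE 0.32) and 2.35 (SE 0.25). The clock activator Arntl moved by -0.27 (SE 0.14, not called) after APAP and fell by 1.61 (SE 0.17) after vehicle, and its target Dbp moved by 0.78 (SE 0.30, not called) and rose by 2.33 (SE 0.24). Nfil3, a repressor that opposes Dbp, went both ways, up by 0.96 (SE 0.13) after APAP and down by 1.58 (SE 0.15) after vehicle, and Nr1d1, a nuclear receptor of the clock, rose by 1.10 (SE 0.28) after APAP, with -0.26 (SE 0.13, not called) after vehicle. Per1 rose by 0.98 (SE 0.12), Ciart by 0.90 (SE 0.18) and Tspan4, a tetraspanin included in the clock list, by 0.91 (SE 0.13), and vehicle moved these 3 by 0.55 (SE 0.13, under the limit), 0.62 (SE 0.16) and 0.86 (SE 0.06). These 3 are named because, of the 7 higher clock genes with a promoter window, they are the ones that hold the E-box CACGTG, the site of the clock activator. Of all 22 clock genes with a window 6 hold it, as do 2349 windows in all (7.15%). Tspan4 (chr7:141476130-141476429, plus strand) is shown for a move that the drug did not detectably alter (difference 0.05, SE 0.12).
Tspan4: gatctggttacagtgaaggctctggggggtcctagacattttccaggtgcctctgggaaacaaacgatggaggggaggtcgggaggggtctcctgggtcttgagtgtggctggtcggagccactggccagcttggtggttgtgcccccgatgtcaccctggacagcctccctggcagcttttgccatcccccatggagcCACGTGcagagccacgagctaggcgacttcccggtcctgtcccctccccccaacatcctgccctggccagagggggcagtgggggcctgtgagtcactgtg

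The glucocorticoid targets, which a fast or stress induces, had 10 of 24 higher and 1 lower after APAP and none higher and 6 lower after vehicle. Zbtb16, a factor of this list, moved by -0.80 (SE 0.33, not called) after APAP, or -1.05 and called without replicate 5, and fell by 2.21 (SE 0.17) after vehicle. The growth factor response gene Id1, a target of BMP signalling, rose by 1.03 (SE 0.20) after APAP and fell by 0.85 (SE 0.14) after vehicle. Trib3, an inhibitor of ATF4 and AKT, moved by 0.53 (SE 0.23, not called) and fell by 0.91 (SE 0.12). Against vehicle alone these genes were higher after APAP by 1.40 (SE 0.34), 1.89 (SE 0.21) and 1.44 (SE 0.25).

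Inflammatory signals rose in a few genes, and markers of inflammatory cells are given after them. Of 24 chemokines, 3 were higher and 1 lower than at 0 h. Cxcl1, a neutrophil attractant, read 8.42, 8.59, 8.36, 8.16 and 8.49 at 0 h and 11.82, 10.82, 11.57, 12.33 and 10.02 after APAP, with replicate 5 the lowest of a group that lay wholly above. It rose by 2.91 (SE 0.34). Its relative Cxcl2 rose by 2.62 (SE 0.55) from untreated values near the bottom of the range (4.92 to 5.47), with APAP replicate 5 at 5.61, just above them. Cxcl10, an interferon-induced attractant of T cells, rose by 2.85 (SE 0.44). Cxcl12, made by stromal cells, was lower by 0.64 (SE 0.14), and without replicate 5 the difference of -0.55 was under the limit. Vehicle moved Cxcl1 by 0.65 (SE 0.20), a call that rested on vehicle replicate 3 (0.42 without it, not called). Of 37 NF-kappaB feedback and cytokine genes, 5 were higher and none lower, led by Nfkbiz, a nuclear regulator of NF-kappaB, at 2.06 (SE 0.23). Socs3, which restrains cytokine receptors, rose by 0.98 (SE 0.19) after APAP and fell by 1.00 (SE 0.17) after vehicle. Of 30 acute phase genes 1 was higher, and of 49 coagulation and complement genes 3 were higher and 1 lower. Of all genes 2.49% were higher and 1.77% lower, so the counts of these 2 lists are not read as a result. Thbd, thrombomodulin, an anticoagulant receptor, rose by 1.71 (SE 0.31).

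Among cell type markers, 1 of 12 Kupffer cell genes was higher (Cd68, 0.95), 1 of 14 for monocytes (Chil3), 1 of 16 for neutrophils (Lcn2) and 1 of 17 for sinusoidal endothelium (Lyve1, 1.05). None of the genes listed for B cells (7), T and NK cells (13), stellate cells (16), cholangiocytes (9) or erythroid cells (4) was called. Of all genes 4.26% were called, so counts on such short lists are not read as a result about these cells. Chil3, a chitinase-like protein of macrophages, read 5.52 to 5.99 at 0 h and 6.47, 8.50, 9.32, 7.16 and 6.01 after APAP, where replicates 2 and 3 made most of the difference of 1.76 (SE 0.52, adjusted p = 0.0326), a call lost without any 1 of the 5 untreated arrays or without APAP replicate 2. Marco, a scavenger receptor of Kupffer cells, read 6.37 to 7.29 at 0 h and 6.81, 7.45, 7.89, 10.21 and 10.11 after APAP, high in replicates 4 and 5 only, and was not called (1.81, SE 0.60, adjusted p = 0.0514), although it was without APAP replicate 1 or 2 (2.23 and 2.07). Lcn2, which hepatocytes also make in the acute phase, rose by 1.34 (SE 0.39), with overlap between the groups and a call lost without any 1 of 5 single arrays. The neutrophil alarmins S100a8 and S100a9 moved by 0.77 (SE 0.33) and 0.55 (SE 0.22) and were not called with all arrays, but were without replicate 5 (1.03 and 0.73). The mean of the Kupffer cell list ran from 8.89 to 9.25 at 0 h and from 9.16 to 10.06 after APAP, and that of the neutrophil list from 7.43 to 7.60 and from 7.61 to 7.92. The part of these cells in the chemokine values was not tested.

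The 6 h liver was also set between its neighbours in time, the APAP livers of 3 h and 9 h. Few genes differed from 3 h, with 21 higher (0.116%) and 10 lower (0.055%) at 6 h, and 122 were higher (0.671%) and 45 lower (0.248%) at 9 h than at 6 h. Without APAP 6 h replicate 5 these counts were 44 and 12, and 83 and 25. Psat1 rose between 3 h and 6 h by 1.59 (SE 0.25), Ifrd1 by 1.33 (SE 0.18) and Maff by 0.65 (SE 0.12), while Egr2 fell by 1.86 (SE 0.29). The moves of Hspa1a (1.13, SE 0.51) and Glul (0.44, SE 0.37) were not called. From 6 h to 9 h, 8 of the 41 immediate early genes fell, or 6 without replicate 5. Btg2 fell by 1.83 (SE 0.36), Plk3 by 1.53 (SE 0.29) and Fos by 1.65 (SE 0.43, adjusted p = 0.0497), the last not called without replicate 5 (adjusted p = 0.087). Hmox1 fell by 1.21 (SE 0.22) over the same 3 h.

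Some endoplasmic reticulum genes that were not called between 0 h and 6 h rose afterwards. Of 29, 6 were higher at 9 h than at 6 h, and 5 without replicate 5. Sdf2l1 rose by 1.68 (SE 0.31), Creld2 by 1.40 (SE 0.27) and Manf by 1.04 (SE 0.21). The APAP means of Sdf2l1 were 9.35 ± 0.26 (SD, n = 5), 9.56 ± 0.73, 11.25 ± 0.40 and 12.21 ± 0.32 in the order 3, 6, 9 and 24 h, against 9.59 ± 0.34 before dosing. The vehicle means were 11.65 ± 0.45, 11.46 ± 0.46, 11.37 ± 0.14 and 10.50 ± 0.37 at the same times, so that the vehicle mean was above the APAP mean at 3 and 6 h and below it at 24 h. Glul was 10.87 ± 0.50, 11.31 ± 0.85, 10.71 ± 0.55 and 9.96 ± 0.29 after APAP, under the untreated 13.17 ± 0.03 at every time. Its vehicle means lay between 13.06 and 13.21.

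**Figure D5:**
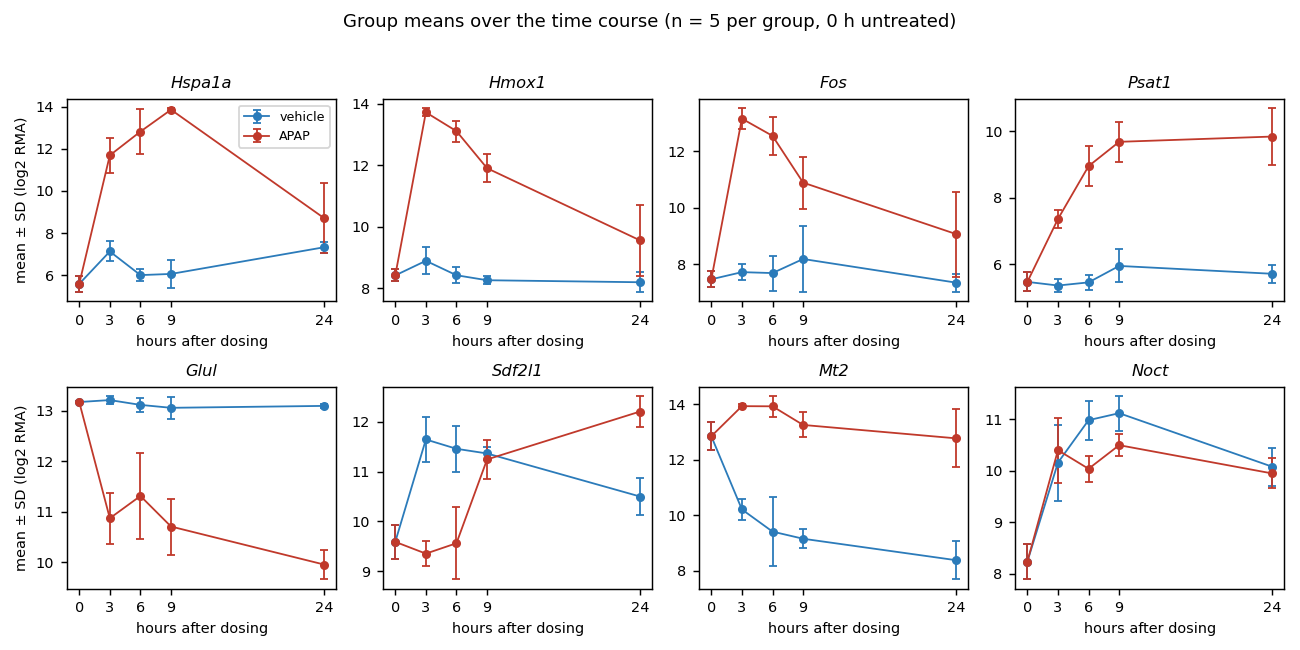
Mean log2 expression with SD (n = 5 mice) of 8 genes at 0, 3, 6, 9 and 24 h after vehicle or APAP, both drawn from the untreated mice at 0 h. Hspa1a, Hmox1, Fos and Psat1 lie well above vehicle at 3, 6 and 9 h after APAP. Mt2 falls after vehicle and at 6 h after APAP lies above the untreated level. Sdf2l1 rises after vehicle by 3 h and after APAP by 9 h.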

How the data were processed

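Total RNA of 45 mouse livers was hybridised to Affymetrix whole-genome mouse arrays. The authors made the deposited log2 expression values with RMA (background correction, quantile normalization and probe summary) in affy 1.64.0 under R 3.6.1, on a BrainArray probe grouping that gives 1 value per Entrez gene, and used limma 3.42.2. The values were used as deposited, with no further normalization or filter, and array medians lay between 7.59 and 7.66. The labels do not link the column names of another deposited table to mice, so its 45 columns of values were left aside and its gene symbols alone were read. It gave a symbol for 18177 of 18180 genes.

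Groups came from the sample titles, which give treatment, time and replicate. Each comparison was fitted on its own 10 arrays with limma 3.58.1 in R 4.3.3 (lmFit and eBayes, two-sided, Benjamini-Hochberg over 18180 genes), with the thresholds of the study's methods. Each array is another mouse, so p values measure the spread between mice, and the number of arrays limits precision. Simulated data of 18180 genes were made from the main comparison with 200 genes changed. Of these, 67 of 68 changed by 1 on the log2 scale were called, with 2 false calls among the unchanged genes. In the measured comparison 3986 genes had an adjusted p under 0.05 from limma, so these rates need not carry over. That recovery does not hold for every measured gene, since larger moves in variable genes such as Marco (1.81) and Cidec (1.45) were not called. Promoters were read from RefSeq tables, the motifs being set as described with each.

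The genes and lists were chosen with earlier results of these data known, and lists carry counts and medians and no test. Named genes were the 15 largest called increases and decreases from 0 h without overlap of arrays, the 8 each way against vehicle, the 5 each way for vehicle against 0 h, up to 5 called and 2 uncalled members of each list, and 6 genes the study names. Values of some genes that this rule gives are summarised in the counts only or not reported here. Hspe1, Chordc1, Egr2, Chka, Pgd, Asns, Atf4, Lgr5, Rgn, Lect2, Angptl4, Irs2, Manf, Srebf1, Nfil3, Tspan4, Ciart and Fas were chosen after their values were seen. Alternatives tried were 1 model over 45 arrays, omission of single arrays, the replicate number as a block (statmod 1.5.0), trend and robust moderation, weighted arrays, dropping the dimmest 25% of genes, centring of arrays, an adjusted p under 0.01 and a test against a 1.5-fold change.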

Additional observations from a re-analysis of the deposited data

Results flagged for a closer look

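Among 408 groups of 5 arrays, 29 held 1 array far from the other 4, its gap to the nearest being most of the range of the group, and chance picks out about 1 in 20 groups. Vehicle replicate 3 was that array 12 times. Its log2 level was 9.58 against 10.51 to 10.84 for Dnajb1, 9.27 against 9.52 to 9.56 for Ifrd1, and 8.64 against 9.20 to 9.42 for Tbx3. It was the high array for Mt2 at 11.56 against 8.62 to 9.45, Irs2 at 8.26 against 7.64 to 7.80, Cdh1 at 11.59 against 11.04 to 11.17 and Fas at 9.03 against 8.70 to 8.79. The same array read 9.97 against 8.71 to 8.88 for Cxcl1, 10.13 against 9.00 to 9.19 for Lcn2, 7.51 against 6.03 to 6.26 for S100a8, 7.90 against 7.01 to 7.14 for S100a9, and 9.95 against 8.47 to 8.60 for Lyve1.

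APAP replicate 5, the array with high pancreatic genes, stood apart 5 times. It was high for 3 pericentral transport and glutamine genes, Slc1a2 at 9.62 against 7.60 to 8.18, Glul at 12.81 against 10.76 to 11.07 and Slc13a3 at 7.29 against 5.47 to 5.97. It was low for both Nrf2 targets Nqo1, at 8.42 against 8.99 to 9.14, and Pgd, at 10.76 against 11.22 to 11.40.

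Of the other single arrays, APAP replicate 4 read 11.14 for Klf6 against 10.60 to 10.75, and APAP replicate 1 read 9.93 for Arntl against 9.19 to 9.39. At 0 h, replicate 2 was high for Plk3 (9.42 against 8.65 to 8.79), Thbd (8.54 against 7.88 to 8.06) and the fat cell genes Adipoq (7.14 against 5.08 to 5.44) and Cfd (8.31 against 6.53 to 7.02). Also at 0 h, replicate 1 read 8.89 for Gdf15 against 8.42 to 8.50, and replicate 4 read 11.63 for Erbb3 against 11.41 to 11.47. Among vehicle arrays, replicate 5 read 8.86 for Plk3 against 9.25 to 9.29 and 11.61 for Cyp7a1 against 10.85 to 11.01, and replicate 2 read 5.83 for Psat1 against 5.33 to 5.38 and 7.20 for Zbtb16 against 7.76 to 7.96.

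For the genes described with values in the text, 24 differences between times after APAP were past the threshold in the direct limma test. Between 3 h and 6 h, Ifrd1 was higher by 1.33, Psat1 by 1.59, Maff by 0.65 and Dbp by 1.40, with adjusted p of 0.0153, 0.0299, 0.0441 and 0.0472. Over the same step Egr2 differed by -1.86 (adjusted p = 0.0282), Arntl by -0.72 (0.0415) and Socs3 by -1.09 (0.0472). From 6 h to 9 h the early genes differed by -1.65 (Fos), -0.59 (Egr1), -1.83 (Btg2), -1.53 (Plk3) and -1.50 (Chka), and the stress genes Hmox1 by -1.21 and Chac1 by -0.64. Over that step G6pc differed by -1.13, Irs2 by -0.65 and Nr1d1 by -1.34. Those higher at 9 h were Nqo1 by 0.60, Lect2 by 0.89, Mvd by 0.67, Sdf2l1 by 1.68, Creld2 by 1.40, Manf by 1.04 and Chil3 by 2.97. The adjusted p values of these 17 differences from 6 h to 9 h ran from 0.00970 to 0.0497. Without APAP replicate 5 of 6 h, Dbp and Socs3 (-0.98, adjusted p = 0.0511 from limma) were no longer called between 3 h and 6 h, nor were Fos, Chil3, Lect2, Irs2 and Nqo1 between 6 h and 9 h.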

How the results depend on the processing

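The counts from 0 h kept within 1.5 times of 453 higher and 321 lower for APAP under every alternative but the test against a 1.5-fold change, which left 102 and 17. That test left 44 and 33 genes for vehicle against 0 h, 91 and 69 for APAP against vehicle, and 0 and 0 for each of the steps from 3 h to 6 h and from 6 h to 9 h, where 2219 and 4111 genes had an unadjusted p under 0.05. Leaving out 1 array at a time gave 403 to 505 higher and 268 to 355 lower for APAP from 0 h, 284 to 331 and 197 to 238 for vehicle, and 360 to 478 and 496 to 594 for APAP against vehicle. For the step from 3 h to 6 h it gave 4 to 44 higher and 1 to 12 lower, and for 6 h to 9 h 68 to 166 and 20 to 72. The 3 h to 6 h counts were 64 and 19 with 1 model over 45 arrays, 57 and 18 with array weights, 4 and 1 at an adjusted p under 0.01, and 6 lower with centred arrays. The 6 h to 9 h counts were 47 and 12 at an adjusted p under 0.01, and 75 lower with 1 model. The cause of these moves was not tested, apart from the stricter thresholds and the array left out.

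Replicate numbers were not taken to pair the mice, since in no comparison did every same-numbered pair of arrays deviate together. These correlations ran from -0.07 to 0.04 for APAP and 0 h, -0.14 to 0.16 for vehicle and 0 h, -0.17 to 0.31 for APAP and vehicle, -0.14 to 0.25 for 3 h and 6 h and -0.23 to 0.14 for 6 h and 9 h. With the replicate number as a block, the counts were 451 and 315 for APAP from 0 h, 307 and 216 for vehicle, 412 and 549 for APAP against vehicle, 13 and 2 for 3 h to 6 h, and 138 and 57 for 6 h to 9 h. Of 2170 alternatives run for 136 named genes from 0 h, 44 lost the call, 28 gained it and 0 reversed a called direction. Cyp7a1, Ccnd1, Cdh1, Chil3, Lcn2, Cxcl12, Oat and Fas were among those that lost it without 1 array or more, and Mt1 (0.77) and G6pc (-0.75) lost it in 1 model over 45 arrays. Those that gained it under 1 setting or more included Marco, Dbp and Hsd3b5, all 3 with the replicate block (adjusted p = 0.0360, 0.00279 and 0.00869 from limma). Pdk4, Cidec, Cdkn1a, Car3, Trib3, Zbtb16, Stip1, S100a8, S100a9 and C730036E19Rik also gained a call under 1 setting or more. With 5 arrays a group, a gene not called is not shown to be unmoved.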
